A study of Mus musculus with 9 samples.

Results

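RNA was compared between non-neuronal cells sorted from stab-injured cortex and from uninjured cortex of adult mice. These groups make up 6 of the 9 libraries of the series, 3 injured and 3 uninjured, taken by their labels. The 3 remaining libraries come from cultures and are not compared here. They enter the filter on low counts, the scaling factors and the shared estimate of spread between replicates. All mice were wild type, of strain C57BL/6J and 2 to 3 months old. Injured samples were lesion cores from cortex cut in a grid with a surgical lancet, and uninjured samples were intact cortex with no other treatment. Both were dissociated with papain and passed through flow cytometry, which removed debris, dead cells and neurons, the neurons being gated as CD171-positive and ACSA-2-negative. The labels of the samples place collection 1 day after injury, while the series design gives 3 days, so the time is uncertain. Polyadenylated RNA was sequenced. The labels call the 3 samples of a group biological replicates without saying whether each came from 1 mouse or from a pool, so p-values measure the spread between these samples only.

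A stab wound breaks vessels and the glial network of the cortex. Blood leukocytes, first neutrophils and then monocytes, enter the wound, resident microglia are activated, and astrocytes around the lesion enlarge, increase their intermediate filaments and in part divide, as do oligodendrocyte precursors and microglia. The sorted fraction therefore holds astrocytes, microglia, oligodendrocytes, their precursors, vascular cells and any leukocytes present, and RNA of the whole fraction was measured at once. A change in the share of a cell type and a change of RNA per cell cannot be told apart in such samples.

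Total counts ran from 12205049 to 18577561 per library in the uninjured group and from 20389561 to 21135163 in the injured group. Uninjured libraries 2 and 3 stood apart: olfactory and vomeronasal receptor genes, which cortex is not known to use, summed to 182 and 151 CPM (counts scaled by the total of the library) in them against 23.5 to 44.1 CPM in the other 4, and the satellite-like gene Gm10800 reached 2956 and 19768 CPM against at most 5.18 CPM. Uninjured library 1 had Xist at 28.2 CPM, where the other 5 had at most 0.473 CPM, although Y-linked Ddx3y was between 43.6 and 86.1 CPM in all 6. Among the injured libraries, library 3 differed from the other 2 in its markers: 5 astrocyte markers summed to 3976 CPM in it against 1771 and 1983 CPM, 3 oligodendrocyte precursor markers to 289.9 CPM against 86.5 and 19.7 CPM, and 3 monocyte markers to 247 CPM against 1529 and 517 CPM. The sort itself was checked on its antigens and on neuron markers. L1cam, which encodes CD171, lay between 0.754 and 2.68 CPM in all 6 libraries, and Atp1b2, which encodes ACSA-2, between 59.4 and 252 CPM. The 5 neuron markers (Snap25, Syt1, Rbfox3, Slc17a7 and Gad1) summed to between 6.06 and 20.5 CPM, against 12506 to 33883 CPM for 4 oligodendrocyte markers. Markers of fibroblasts, ependyma and choroid plexus were also low, with sums under 39.1 CPM, and erythrocyte markers summed to between 1071 and 4796 CPM.

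The question of the comparison is what a stab wound changes in this sorted fraction. Of 18093 genes with enough counts, 2145 passed an adjusted p of 0.05 (11.9% of those tested), 1626 higher (8.99%) and 519 lower (2.87%) in injured cortex. Because libraries stood apart, each call was repeated without each of the 6 libraries in turn and without uninjured libraries 2 and 3 together; a call made in the same direction in all 7 fits is called stable below. The count of calls was 974 without injured library 1, 4102 without injured library 3, 1123 without uninjured library 2, 1284 without uninjured library 3 and 462 without both of these, and between 1632 and 2264 without either remaining library. Of the genes, 368 were stably higher (2.03%) and 19 stably lower (0.105%). The direction was not even under every scaling: higher genes were 75.8% of calls here. The share was 64.0% with upper-quartile factors, 64.5% with library sizes that leave out the 100 most abundant genes, and 60.6% with DESeq2's Wald test. The plot of fold change against level shows stable calls from low to high levels on the upper side and few below.

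**Figure D1:**
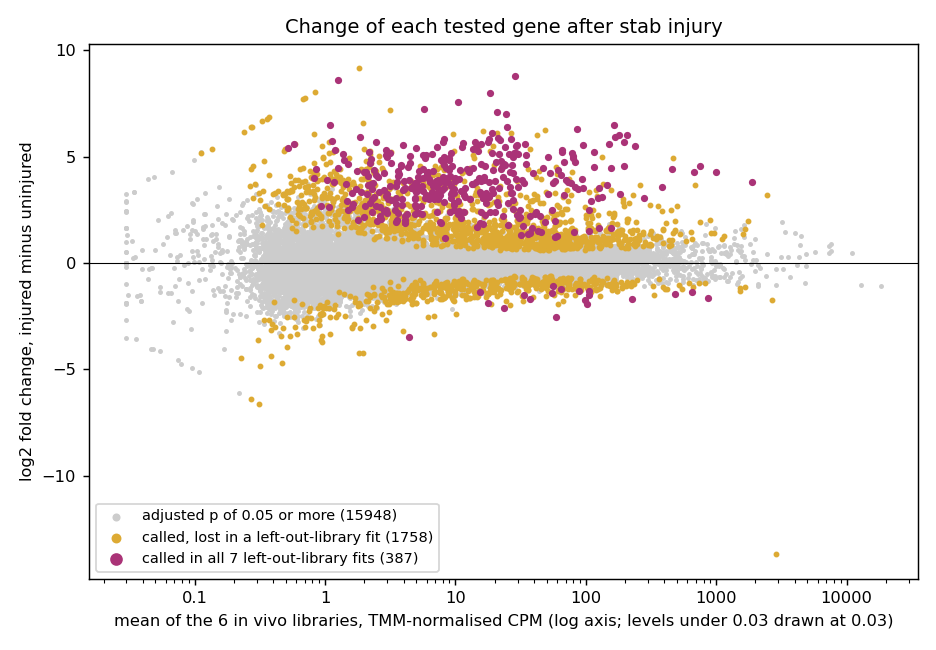
Log2 fold change of injured against uninjured cortex for each of the 18093 tested genes (vertical axis) by its mean level over the 6 libraries in normalized CPM (horizontal log axis). Of the called genes, 387 were stable, 368 of them above 0; the lone point at -13.70 is Gm10800, whose call was lost without uninjured libraries 2 and 3 (adjusted p = 0.177) and in limma-voom (0.14).

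Levels of single genes below are CPM after TMM scaling (trimmed means of M values), given for libraries 1, 2 and 3 in that order. They are not divided by gene length, so they compare libraries and not genes. Fold changes are log2 values of injured against uninjured cortex ± SE, and p-values are adjusted over all 18093 genes. The SE was derived from the test, as the absolute log2 fold change divided by the square root of the F statistic. Among genes with a mean of 50 CPM or more in injured cortex, the largest stable rise was that of Timp1, an inhibitor of matrix metalloproteinases (log2 fold change 8.78 ± 0.54, adjusted p = 3.92e-06), at 0.221, 0.0898 and 0.0609 CPM uninjured and 93.7, 39.2 and 38.6 CPM injured. It was followed by Il1r2, the decoy receptor for interleukin-1 (6.48), Thbs1, the matrix protein thrombospondin-1 (6.30), the membrane protein gene Ms4a4c (6.03) and Serpina3n, a secreted protease inhibitor (6.01). In CPM the largest rises among called genes were those of Lyz2, the lysozyme of myeloid cells (488 to 4455 CPM), Cd74, the invariant chain of MHC class II (249 to 3536 CPM), and H2-D1, an MHC class I gene (706 to 2805 CPM). Of these 3, Cd74 was stable, while the other calls were lost in some fits, by adjusted p: without uninjured libraries 2 and 3 Lyz2 (0.111) and H2-D1 (0.429), without injured library 1 H2-D1 (0.0903), without uninjured library 2 H2-D1 (0.0961) and without uninjured library 3 H2-D1 (0.0838). The median log2 fold change of all tested genes was 0.0012. All injured libraries were above all uninjured libraries in 2909 tested genes (16.1%) and below them in 2264 (12.5%). Beside a list, the count with libraries left out is given where a printed count moved by over 1.5 times, or from 0. The plot of gene lists gives the share called in each of 69 lists chosen by function or cell type, beside the shares of all tested genes.

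**Figure D2:**
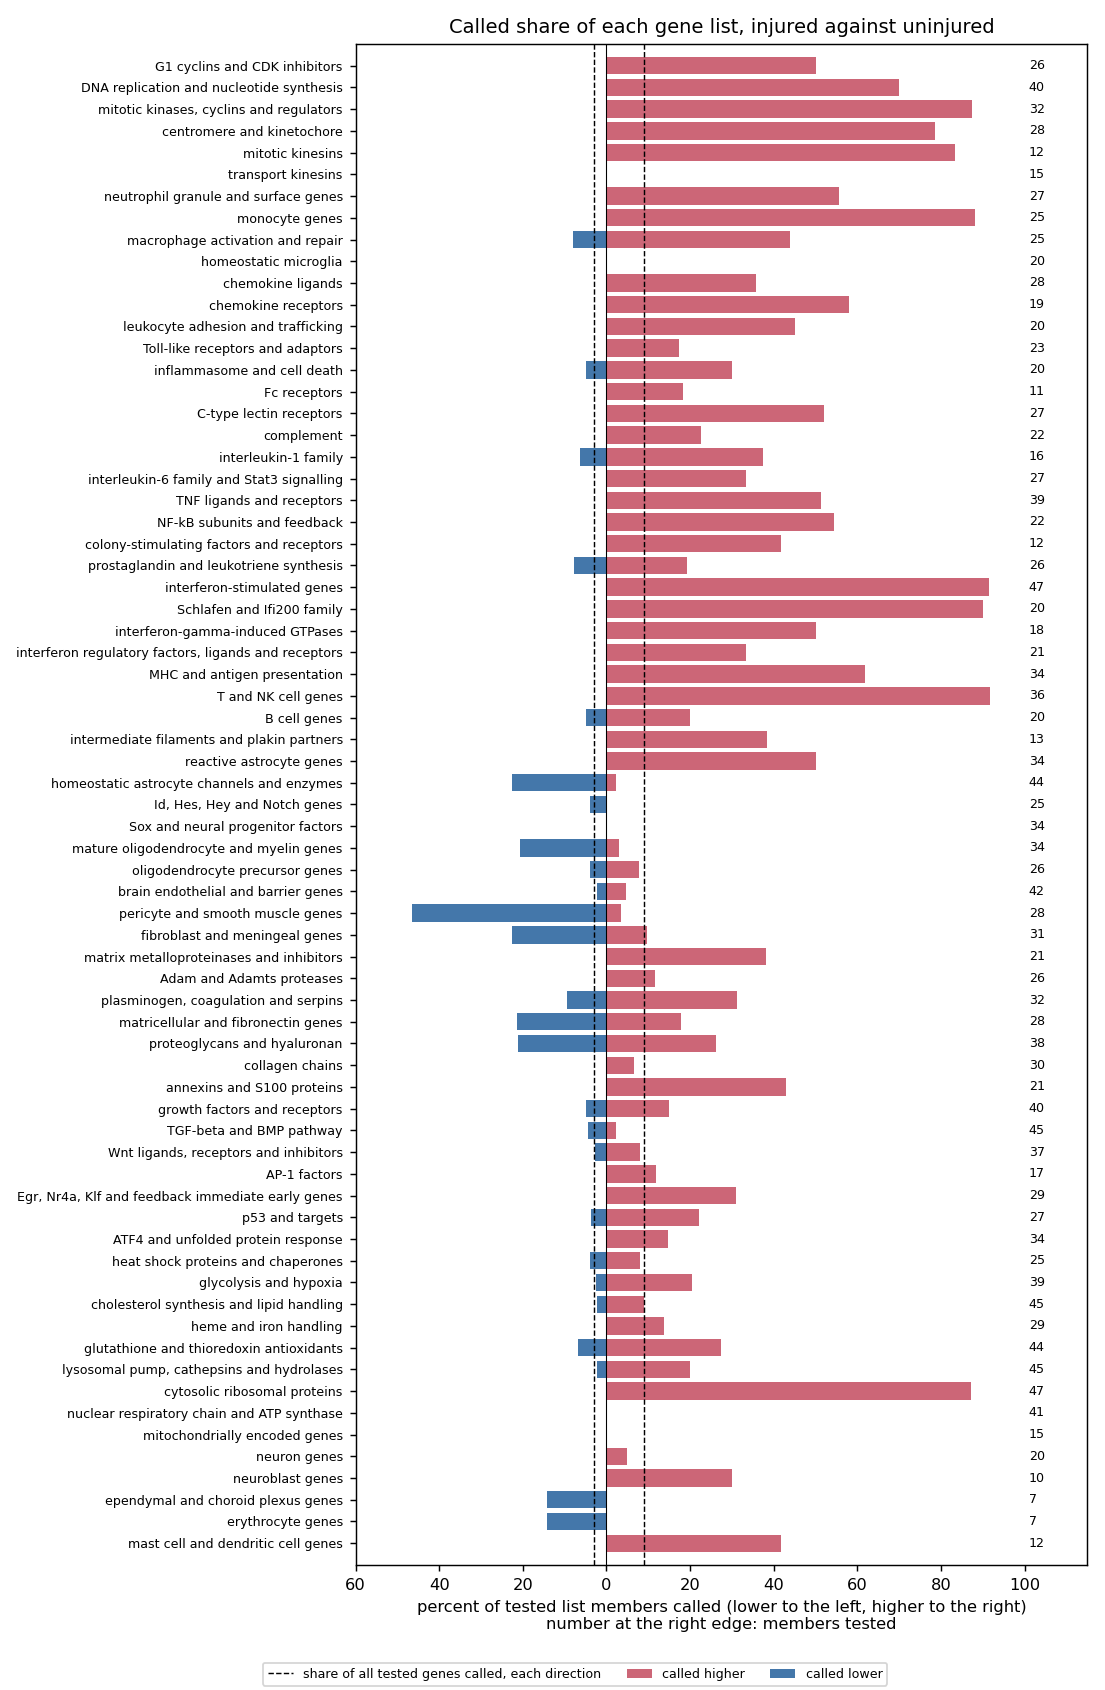
Percent of tested members of each gene list called higher (right, red) or lower (left, blue) in injured cortex, with the number tested at the right edge. Dashed lines mark the shares of all tested genes, 8.99% higher and 2.87% lower; lists of T and NK cell, interferon-stimulated, Schlafen and Ifi200, monocyte, mitotic and ribosomal protein genes reach furthest to the right, and pericyte genes furthest to the left.

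Genes of cell division rose, and the list of mitotic regulators had the highest share of stable rises of the 69 lists. Cells enter the cycle when D-type cyclins with Cdk4 or Cdk6 free the E2F factors, which then switch on cyclin E and the replication genes. In the list of G1 cyclins and their inhibitors 13 of 26 tested members rose and 13 did not pass, with a list median of 0.91 (log2). Ccnd1, cyclin D1, was at 15.5, 25.5 and 13 CPM uninjured and 53.8, 35.2 and 46.8 CPM injured (log2 fold change 1.33 ± 0.27, adjusted p = 0.00653). Every injured library exceeded every uninjured library. Ccne1, cyclin E1, rose from 0.894 to 9.03 CPM (3.33) and the factor gene E2f1 from 1.8 to 17.8 CPM (3.30), both stably. Cdkn1a, the CDK inhibitor p21 and a p53 target, rose too, at 86.9, 20.6 and 19.5 CPM uninjured and 454, 408 and 159 CPM injured (log2 fold change 3.01 ± 0.57, adjusted p = 0.00489), with injured library 3 lowest of its group but above all uninjured libraries. Its call was lost only without uninjured libraries 2 and 3 (adjusted p = 0.117). Cdk4 (0.61, adjusted p = 0.0743) and Cdk6 (0.52, adjusted p = 0.13) did not pass. The count of the list was 8 without injured library 1 or uninjured library 3 and 3 without uninjured libraries 2 and 3.

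Replication followed the same direction. The list of DNA replication and nucleotide synthesis had 28 of 40 members higher, 13 of them stably, and a median of 1.37; the count was 13 without uninjured libraries 2 and 3. The nucleotide enzymes led: Rrm2, the S-phase subunit of ribonucleotide reductase, was at 2.7, 1.98 and 1.64 CPM uninjured and 58.4, 56.7 and 41 CPM injured (log2 fold change 4.62 ± 0.28, adjusted p = 3.92e-06). Tk1, thymidine kinase, was at 1.71, 1.75 and 1.83 CPM uninjured and 52.7, 38.3 and 19.98 CPM injured (log2 fold change 4.39 ± 0.34, adjusted p = 1.69e-05). All 3 injured libraries were far above the uninjured range for both. Of the MCM helicase that unwinds DNA, Mcm5 (2.74), Mcm6 (2.12) and Mcm2 (2.13) rose stably, and so did Cdc6 (4.06), which loads it, Gins2 (2.41), a part of the active helicase, and Uhrf1 (4.59), which brings the maintenance DNA methyltransferase to new strands. The chromatin assembly genes Chaf1b (3.39) and Chaf1a (2.65) and the ligase Lig1 (1.89) were stably higher as well. Pcna, the sliding clamp of the polymerases, was at 132, 106 and 75.5 CPM uninjured and 203, 195 and 92.2 CPM injured (log2 fold change 0.65 ± 0.31, adjusted p = 0.21) and did not pass.

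Mitotic genes had the larger folds. Among mitotic kinases, cyclins and regulators 28 of 32 tested members rose and 4 did not pass, 22 of the rises being stable, with a median of 3.70. Mki67, the chromosome-coating protein Ki-67, was at 0.551, 0.629 and 0.609 CPM uninjured and 15.6, 16.6 and 19.4 CPM injured (log2 fold change 4.83 ± 0.25, adjusted p = 1.54e-06). The 3 injured libraries lay close together, far above all uninjured libraries. Cdk1, the kinase that drives mitosis, was at 1.6, 1.75 and 1.22 CPM uninjured and 55.2, 46.3 and 27.9 CPM injured (log2 fold change 4.81 ± 0.30, adjusted p = 3.92e-06). Its partners Ccnb1 (6.11), Ccnb2 (6.40) and Ccna2 (4.41) rose with it. Pbk, a kinase active in mitosis, was at 1.21, 0.988 and 0.548 CPM uninjured and 56.5, 59.8 and 40.6 CPM injured (log2 fold change 5.81 ± 0.31, adjusted p = 1.54e-06). Rises were also stable for the mitotic kinases Plk1 (4.97), Aurkb (4.92), Aurka (3.34), Bub1 (5.54) and Ttk (2.16), for Birc5, the survivin subunit of the chromosomal passenger complex (5.56), for Top2a, which untangles sister chromatids (4.39), and for Ube2c (5.11) and Cdc20 (3.29) of the anaphase-promoting complex. Pttg1, securin, did not pass, at 193, 171 and 202 CPM uninjured and 147, 145 and 105 CPM injured (log2 fold change -0.51 ± 0.22, adjusted p = 0.167). Its uninjured libraries were all above its injured ones, as in 12.5% of all tested genes.

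The machinery that holds and moves chromosomes showed the same pattern. In the list of centromere and kinetochore genes 22 of 28 tested members rose and 6 did not pass (median 2.84). Cenpa, the centromeric histone, was at 3.47, 4.72 and 4.02 CPM uninjured and 86.5, 65.3 and 32 CPM injured (log2 fold change 3.91 ± 0.34, adjusted p = 3.09e-05). All 4 genes of the NDC80 complex that binds microtubules rose stably: Spc25 (3.91), Spc24 (5.19), Nuf2 (3.99) and Ndc80 (4.27). Of 12 mitotic kinesins 10 rose, 8 stably, among them Kif11, which pushes spindle poles apart (log2 fold change 2.98 ± 0.45, adjusted p = 0.0011), Kif20a and Kif23, which act in cytokinesis (3.45 and 3.03), and Kif22, which pushes chromosome arms (3.48). Of 15 kinesins that carry cargo along axons and processes, 0 were called by edgeR with TMM factors. In edgeR 1 was lower with upper-quartile factors and 1 with DESeq2 size factors. Lower were 3 at an unadjusted p under 0.05, 2 by DESeq2's Wald test and 1 by limma-voom. Without injured library 3 edgeR called 7 of these 15 lower. Kif3a was at 94.4, 94.8 and 80.2 CPM uninjured and 56.2, 48.9 and 71 CPM injured (log2 fold change -0.61 ± 0.20, adjusted p = 0.0692). All its uninjured libraries were above the injured ones, as in 12.5% of all tested genes. Kif1b was at 118, 241 and 266 CPM uninjured and 89.7, 66.9 and 234 CPM injured (log2 fold change -0.68 ± 0.42, adjusted p = 0.341), with overlapping groups. Together the lists of mitotic regulators, centromere genes and mitotic kinesins held 72 tested genes, of which 60 rose, 47 stably.

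Promoter sequences of the division genes are shown because the members moved together and genes of these phases are known for shared control elements. Genes of the G2 and M phases often carry a cell cycle homology region, a DREAM and B-Myb binding element with the letters TTTGAA, which read as TTCAAA on the other strand. It lies downstream of CCAAT boxes, which bind NF-Y and read as ATTGG on the other strand. Windows of 250 bases before the start were taken from RefSeq on GRCm38.p6 and matched by symbol, which gave a window for 58 of the 72 genes. A gene was counted if any of its windows matched. Shares of all windows count each window singly, so they are another measure than shares of genes. TTTGAA or TTCAAA was found in 17 of the 58 (29.3%), against 16% of all 32851 windows of the same length in the table, 13.6% of the 12300 tested genes with a window and 22% of the 282 stably higher genes with one. These letters were not particular to division genes: they were in 22 of the 62 interferon genes with a window described below (35.5%). CCAAT or ATTGG was found in 40 of the 58 (69.0%), against 33.8% of all windows, 40.1% of tested genes, 44.3% of stably higher genes and 21 of 62 interferon genes (33.9%). The 33 replication genes with a window held TTTGAA or TTCAAA in 5 cases (15.2%) and CCAAT or ATTGG in 20 (60.6%), and E2F letters TTTCGCGC or GCGCGAAA in 6 (18.2%), against 0.256% of all windows and 0.537% of tested genes. A match of letters is a description and shows no binding. The 5 stable division genes with the smallest adjusted p that had both elements in the last 150 bases before the start are printed below, 5′ to 3′ on the strand of the gene and ending at the base before the start, with matches to both elements in capitals.
Mki67: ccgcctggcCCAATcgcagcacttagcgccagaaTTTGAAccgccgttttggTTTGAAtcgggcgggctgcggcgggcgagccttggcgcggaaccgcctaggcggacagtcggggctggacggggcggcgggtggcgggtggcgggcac
Cdk1: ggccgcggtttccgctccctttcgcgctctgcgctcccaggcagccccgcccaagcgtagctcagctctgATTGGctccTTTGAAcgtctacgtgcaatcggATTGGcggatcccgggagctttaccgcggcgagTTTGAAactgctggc
Top2a: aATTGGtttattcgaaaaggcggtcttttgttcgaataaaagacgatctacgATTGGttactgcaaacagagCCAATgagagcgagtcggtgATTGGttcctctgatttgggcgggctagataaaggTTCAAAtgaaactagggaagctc
Ube2c: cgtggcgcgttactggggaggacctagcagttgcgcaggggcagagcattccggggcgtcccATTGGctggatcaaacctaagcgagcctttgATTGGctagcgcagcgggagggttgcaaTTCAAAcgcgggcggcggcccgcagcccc
Cdc20: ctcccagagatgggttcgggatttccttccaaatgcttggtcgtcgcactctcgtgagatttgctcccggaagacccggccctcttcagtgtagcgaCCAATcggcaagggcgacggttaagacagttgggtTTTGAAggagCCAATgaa
On GRCm38.p6 these stretches lie at chr7:135716380-135716529 on the minus strand, chr10:69352913-69353062 on the minus strand, chr11:99024190-99024339 on the minus strand, chr2:164769779-164769928 on the plus strand and chr4:118437344-118437493 on the minus strand, in gene order. In Cdk1, Top2a, Ube2c and Cdc20 a cell cycle homology match began 15, 23, 29 and 18 bases before the start, with CCAAT or ATTGG letters upstream of it in each and, in Cdc20, also downstream. In Mki67 both such matches lay further from the start, at 116 and 98 bases, with CCAAT at 141 bases. All 5 genes had log2 fold changes between 3.29 and 5.11.

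Genes of neutrophils and monocytes, the leukocytes that enter wounds from the blood, rose. In the neutrophil list 15 of 27 tested members rose and 12 did not pass, 11 of the rises being stable, with a median of 2.39. The receptor Cxcr2, which guides neutrophils, was at 0.11, 0.359 and 0.305 CPM uninjured and 14.2, 7.16 and 4.59 CPM injured (log2 fold change 5.01 ± 0.57, adjusted p = 0.000188). The activating receptor Trem1 was at 1.82, 0.808 and 1.22 CPM uninjured and 90.4, 63.5 and 18.3 CPM injured (log2 fold change 5.49 ± 0.55, adjusted p = 8.96e-05). Injured library 1 was highest for both. Lcn2, lipocalin-2 (5.01), and the granule proteases Mmp9 (3.62) and Mmp8 (2.39) rose stably, as did S100a8, a subunit of calprotectin, at 8.44, 28.5 and 34.1 CPM uninjured and 104, 86 and 86.6 CPM injured (log2 fold change 1.96 ± 0.42, adjusted p = 0.0103). Genes of granules made early in the bone marrow did not pass, at low levels. Mpo was at 0, 4.27 and 0.183 CPM uninjured and 2.83, 5.23 and 0.544 CPM injured. Elane was at 0, 2.2 and 0.792 CPM uninjured and 1.22, 4.6 and 1.56 CPM injured. In both, uninjured library 2 overlapped the injured range. Ngp, a secondary granule gene, was at 25.7, 51 and 59.7 CPM uninjured and 57.8, 153 and 88.4 CPM injured (log2 fold change 1.13 ± 0.39, adjusted p = 0.0794), with overlapping groups. The 4 neutrophil markers (S100a8, S100a9, Ly6g and Ngp) summed to 54.7, 157 and 190.5 CPM of the library total in uninjured and 385.5, 362 and 428 CPM in injured cortex, so some signal was there without injury.

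The monocyte list was more complete. Of its members, 22 of 25 rose, 12 of them stably, with a median of 3.27; the count was 13 without uninjured libraries 2 and 3. Ly6c2, the surface marker of inflammatory monocytes, was at 2.59, 11.7 and 8.4 CPM uninjured and 878, 223 and 63.3 CPM injured (log2 fold change 5.68 ± 0.86, adjusted p = 0.0012). Ccr2, the receptor that brings them out of the marrow, was at 2.98, 6.78 and 4.99 CPM uninjured and 202, 145 and 49.9 CPM injured (log2 fold change 4.74 ± 0.55, adjusted p = 0.000219). Plac8 was at 3.25, 7.1 and 7.67 CPM uninjured and 425, 182 and 63.9 CPM injured (log2 fold change 5.22 ± 0.70, adjusted p = 0.000582). Each of the 3 was highest in injured library 1 and lowest in injured library 3, which was still above all uninjured libraries. F10, coagulation factor X, went from 0.0986 to 20.9 CPM (7.55), and Chil3, a chitinase-like protein of myeloid cells, from 10.4 to 142 CPM (3.78). Cx3cr1, high on microglia and on patrolling monocytes, did not pass, at 859, 1061 and 626 CPM uninjured and 505, 764 and 501 CPM injured (log2 fold change -0.52 ± 0.42, adjusted p = 0.472).

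Macrophage repair genes rose, while 0 homeostatic microglial genes were called by edgeR with all libraries in the fit and TMM factors. In the macrophage list 11 of 25 tested members rose, 2 fell and 12 did not pass; the count of rises was 7 without uninjured libraries 2 and 3, and that of falls 1 without injured library 1 or 2 or uninjured library 2 or 3, 4 without injured library 3 and 0 without uninjured libraries 2 and 3. Arg1, arginase-1 of repair macrophages, was at 0.331, 0.943 and 0.792 CPM uninjured and 49.98, 60.2 and 14.3 CPM injured (log2 fold change 5.88 ± 0.61, adjusted p = 9.92e-05). Lgals3, galectin-3, was at 7.67, 10.4 and 13.2 CPM uninjured and 603, 659.9 and 144 CPM injured (log2 fold change 5.49 ± 0.61, adjusted p = 0.000153). Injured library 2 was highest for both. Hmox1, heme oxygenase, rose from 19.98 to 230.3 CPM (3.53), Gpnmb, a lysosomal glycoprotein, from 1.88 to 43.9 CPM (4.53), and Tgfbi, a matrix protein, from 21.3 to 271 CPM (3.66), all stably. Against the direction of the list, Cd209f, a lectin of vessel-associated macrophages, fell at 6.4, 12.2 and 19.2 CPM uninjured and 0.895, 1.1 and 1.63 CPM injured (log2 fold change -3.36 ± 0.48, adjusted p = 0.0015), a call lost without uninjured libraries 2 and 3 (adjusted p = 0.103). Spp1, osteopontin, was at 25.8, 29.6 and 32.8 CPM uninjured and 626, 1745 and 317 CPM injured (log2 fold change 4.93 ± 0.69, adjusted p = 0.000747) with a call lost in that same fit (adjusted p = 0.0633). Of 20 homeostatic microglia genes, 0 were called by edgeR with TMM factors, and their median was -0.49. Lower were 4 at an unadjusted p under 0.05, 1 by DESeq2's Wald test and 0 by limma-voom. In edgeR 1 was lower with upper-quartile factors, and 1 with library sizes that leave out the 100 most abundant genes. The falls called by edgeR were 3 without injured library 2 and 2 without injured library 3, and the rises 1 without injured library 3. P2ry13, which senses nucleotides in resting microglia, was at 954, 708 and 471 CPM uninjured and 294, 574 and 136 CPM injured (log2 fold change -1.09 ± 0.44, adjusted p = 0.139). Sall1, a factor that keeps microglial identity, was at 44.3, 97.6 and 125 CPM uninjured and 26.3, 30.6 and 78.5 CPM injured (log2 fold change -0.98 ± 0.42, adjusted p = 0.163).

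Chemokine receptors had more stable rises than their ligands. In the receptor list 11 of 19 tested members rose and 8 did not pass; the count was 6 without injured library 1 or uninjured library 2 and 4 without uninjured libraries 2 and 3. The stable rises were those of Cxcr2 and Ccr2 above, Ccr7 (5.21), which leads dendritic and T cells to lymph nodes, and Cxcr4 (5.41), the receptor for Cxcl12. Ccr7 was at 2.87, 3.41 and 4.02 CPM uninjured and 217, 131 and 33.3 CPM injured. Cxcr4 was at 0.11, 0.404 and 0.122 CPM uninjured and 19.6, 4.86 and 4.66 CPM injured. All 11 rises had injured library 1 highest and library 3 lowest. Among 28 ligands 10 rose and 1, Cxcl10, was stable; the count was 17 without injured library 3 and 1 without uninjured libraries 2 and 3. Cxcl10, an interferon-induced ligand for T cells, was at 33.9, 10.7 and 3.29 CPM uninjured and 647, 342 and 148 CPM injured (log2 fold change 4.57 ± 0.74, adjusted p = 0.00181). The ligands of neutrophil receptors, Cxcl3 (5.25) and Cxcl2 (3.08), and the monocyte attractants Ccl12 (2.44) and Ccl2 (2.51) were called. Ccl2 was at 299.7, 62.2 and 43.3 CPM uninjured and 708, 1123 and 477 CPM injured, with a wide range in both groups. Calls were lost, by adjusted p, without uninjured libraries 2 and 3 Cxcl3 (0.0896), Cxcl2 (0.101), Ccl12 (0.132), Ccl2 (0.244), without uninjured library 2 Cxcl2 (0.0587) and Ccl2 (0.0887), without injured library 1 Ccl2 (0.0517), without injured library 2 Ccl2 (0.0537) and without uninjured library 3 Ccl2 (0.0583). The abundant ligand Ccl4 did not pass, at 2799.8, 776 and 440.1 CPM uninjured and 4782, 7831 and 2602 CPM injured (log2 fold change 1.92 ± 0.61, adjusted p = 0.0621). Nor did Ccl3, at 1039, 247 and 131 CPM uninjured and 1557, 2226 and 654 CPM injured (log2 fold change 1.65 ± 0.64, adjusted p = 0.122). Uninjured library 1 was well above the other 2 for both. Reads of the Ccl genes, which have near-identical relatives, may be divided between them in an unknown way.

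Adhesion and pattern recognition genes were mixed. Of 20 adhesion genes 9 rose. The rises of Cd44, the hyaluronan receptor, at 3.97, 3.73 and 4.02 CPM uninjured and 109.9, 69.5 and 43.6 CPM injured (log2 fold change 4.25 ± 0.33, adjusted p = 1.74e-05), of the integrin chains Itgal (3.21), Itgax (3.83), Itgb7 (4.25) and Itga4 (1.89) were stable. The endothelial partners Icam1 (0.73, adjusted p = 0.477) and Vcam1 (-0.15, adjusted p = 0.736) did not pass. Of the others, 4 of 23 Toll-like receptor and adaptor genes rose (2 without injured library 1, 7 without injured library 3 and 0 without uninjured libraries 2 and 3), among them Tlr2, which senses bacterial lipoproteins, at 86.4, 42.2 and 29.2 CPM uninjured and 366, 608 and 153 CPM injured (log2 fold change 2.84 ± 0.49, adjusted p = 0.00287), a call lost without uninjured libraries 2 and 3 (adjusted p = 0.145). C-type lectin receptors had 14 of 27 higher, 7 without uninjured libraries 2 and 3. Clec7a, the beta-glucan receptor dectin-1, was at 9.43, 11.5 and 8.47 CPM uninjured and 332, 251 and 76.9 CPM injured (log2 fold change 4.49 ± 0.48, adjusted p = 0.000132). Clec4d, a receptor paired with Mincle, was at 0.772, 0.629 and 0.487 CPM uninjured and 43.2, 36.2 and 12.7 CPM injured (log2 fold change 5.58 ± 0.47, adjusted p = 2.47e-05). Both were stably higher and lowest in injured library 3. Of 11 Fc receptor genes 2 rose, 4 without injured library 3 and 1 in every other left-out fit; Fcgr4 was the stable one, at 11.1, 11.3 and 6.33 CPM uninjured and 195, 159 and 54.4 CPM injured (log2 fold change 3.82 ± 0.43, adjusted p = 0.000159). Complement had 5 of 22 higher, 8 without injured library 3: C4b was at 3.47, 9.84 and 9.93 CPM uninjured and 127, 59.2 and 129 CPM injured (log2 fold change 3.76 ± 0.42, adjusted p = 0.000165). Cfp, properdin, was at 5.74, 6.56 and 8.71 CPM uninjured and 176, 151 and 40.7 CPM injured (log2 fold change 4.13 ± 0.47, adjusted p = 0.000183). The C1q genes did not pass, with C1qa at 1454, 1896 and 1408 CPM uninjured and 2070.2, 2969 and 1765 CPM injured (log2 fold change 0.52 ± 0.32, adjusted p = 0.332).

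Interleukin-1 and its brakes rose together. Of 16 family members 6 rose, 2 without uninjured libraries 2 and 3, and 1 fell. Each left-out fit had 0 falls but that without injured library 3, which had 1. Il1b, interleukin-1 beta, was at 113, 51.5 and 18.1 CPM uninjured and 2433, 1156 and 724 CPM injured (log2 fold change 4.56 ± 0.66, adjusted p = 0.000929). The decoy receptor Il1r2 was at 7.94, 1.3 and 1.64 CPM uninjured and 524, 385 and 60.9 CPM injured (log2 fold change 6.48 ± 0.89, adjusted p = 0.000672). Both calls were stable. The receptor antagonist Il1rn was at 2.54, 0.539 and 0.67 CPM uninjured and 162, 102 and 22.5 CPM injured (log2 fold change 6.26 ± 0.84, adjusted p = 0.000564), with a call lost without uninjured libraries 2 and 3 (adjusted p = 0.0503). For all 3, injured library 1 was highest and library 3 lowest. The signalling receptor Il1r1 was low in every library, at 1.32, 1.93 and 2.74 CPM uninjured and 2.54, 2.46 and 2.68 CPM injured (log2 fold change 0.36 ± 0.38, adjusted p = 0.6). Il1a did not pass, at 1803, 267 and 114 CPM uninjured and 1654, 3989 and 567 CPM injured (log2 fold change 1.51 ± 0.85, adjusted p = 0.294), with uninjured library 1 highest in its group. Inflammasome genes had 6 of 20 higher, 12 without injured library 3 and 3 without uninjured libraries 2 and 3, with Mefv, pyrin, at 0.441, 0.269 and 0.183 CPM uninjured and 26.7, 14.6 and 6.29 CPM injured (log2 fold change 5.70 ± 0.64, adjusted p = 0.000169). Nlrp3 (1.47, adjusted p = 0.161) and Casp1 (0.92, adjusted p = 0.0736) did not pass.

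Other cytokine systems had fewer stable calls. In the interleukin-6 and Stat3 list 9 of 27 rose and 0 did so stably; the count was 5 without uninjured library 2 and 0 without uninjured libraries 2 and 3, and without injured library 3 there were 3 falls. Osm, oncostatin M, was at 66.1, 23.2 and 13.8 CPM uninjured and 251, 223 and 99.5 CPM injured (log2 fold change 2.48 ± 0.50, adjusted p = 0.00738). Socs3, the feedback inhibitor of this pathway, was at 102, 74.2 and 35.7 CPM uninjured and 224, 241 and 206 CPM injured (log2 fold change 1.66 ± 0.34, adjusted p = 0.0081). Both calls were lost without uninjured libraries 2 and 3 (adjusted p between 0.154 and 0.199). In the TNF list 20 of 39 rose, 3 stably; the count was 9 without injured library 1 or uninjured library 3, 10 without uninjured library 2 and 3 without uninjured libraries 2 and 3. The stable members were Tnfsf11 (5.74), the ligand RANKL, Tnfrsf18 (4.03), known as GITR, and Cd40lg (4.27), all known from T cells, and they were low: Tnfrsf18 was at 0.551, 1.12 and 1.1 CPM uninjured and 27.7, 11.6 and 6.32 CPM injured. Tnf itself was at 169, 55.5 and 15.8 CPM uninjured and 613, 726 and 271 CPM injured (log2 fold change 2.74 ± 0.66, adjusted p = 0.0183), its call being lost without injured library 1 (adjusted p = 0.0576), without uninjured library 2 (adjusted p = 0.0893) and without uninjured libraries 2 and 3 (adjusted p = 0.18). Among NF-kB subunits and feedback genes 12 of 22 rose, 7 without uninjured library 2 and 1 without uninjured libraries 2 and 3. Traf1, an induced adaptor of TNF receptors, was the stable one, at 1.32, 1.8 and 1.89 CPM uninjured and 112, 42.2 and 23.2 CPM injured (log2 fold change 5.14 ± 0.53, adjusted p = 0.000101). The subunits Nfkb2 (1.62) and Relb (1.29) lost their calls only without uninjured libraries 2 and 3 (adjusted p between 0.217 and 0.245). In prostaglandin synthesis and reception, Ptgs2, the inducible cyclooxygenase, rose at 4.25, 0.764 and 0.731 CPM uninjured and 33.1, 26.6 and 14.5 CPM injured (log2 fold change 3.70 ± 0.57, adjusted p = 0.00127). So did the receptor genes Ltb4r1 (4.43), for leukotriene B4, and Ptger2 (4.02), for prostaglandin E2. Ptgds, the prostaglandin D synthase of meninges and oligodendrocytes, fell, at 3969, 5777 and 2518 CPM uninjured and 1150.0, 1265 and 1281 CPM injured (log2 fold change -1.73 ± 0.36, adjusted p = 0.00859), a call lost without uninjured libraries 2 and 3 (adjusted p = 0.0536). Of the growth factor receptors of myeloid cells, Csf2rb, a shared chain for GM-CSF, rose stably (log2 fold change 1.94 ± 0.34, adjusted p = 0.00319). Csf1r of microglia and macrophages did not pass, at 1563, 1454 and 1139 CPM uninjured and 1327, 1949.8 and 1108 CPM injured.

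Interferon-stimulated genes were almost all higher, but unevenly so. Of 47 listed genes 43 rose, and 7 of the rises were stable; 7 were called in the fit without uninjured libraries 2 and 3, and the median log2 fold change was 2.91. Ifi27l2a was at 5.57, 6.29 and 4.51 CPM uninjured and 616, 255 and 113 CPM injured (log2 fold change 5.90 ± 0.61, adjusted p = 0.000104). Zbp1, a sensor of left-handed nucleic acids, was at 1.27, 1.35 and 1.52 CPM uninjured and 133, 50.9 and 18.3 CPM injured (log2 fold change 5.60 ± 0.66, adjusted p = 0.000231). Both were ordered injured library 1, 2, 3, with the lowest far above the uninjured range. Oas2 (4.31) and Oas3 (0.171 to 5.75 CPM), which make the activator of RNase L, Ifitm2 (2.93) and Ifitm6 (4.24), which block viral entry in their family, and Samd9l (2.88) were the other stable rises. Isg15, a ubiquitin-like modifier, was at 7.44, 4.22 and 6.94 CPM uninjured and 233, 68.4 and 39.6 CPM injured. Ifit3 was at 26.5, 12.2 and 18.9 CPM uninjured and 508, 158 and 89.4 CPM injured. Ifitm3 was at 122, 84.3 and 97.5 CPM uninjured and 2444, 1001 and 344 CPM injured. These 3 calls were lost only without uninjured libraries 2 and 3 (adjusted p between 0.0581 and 0.124). In uninjured library 1 each of the 3 was above the other uninjured libraries.

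In the Schlafen and Ifi200 list 18 of 20 members rose, 10 stably (10 without uninjured libraries 2 and 3), with a median of 4.50. Ifi204, a nuclear DNA sensor, was at 4.3, 3.77 and 4.57 CPM uninjured and 273, 129 and 54.3 CPM injured (log2 fold change 5.17 ± 0.50, adjusted p = 6.91e-05). Slfn4, a marker of myeloid cells, was at 0.441, 0.225 and 0.487 CPM uninjured and 108, 28.5 and 9.04 CPM injured (log2 fold change 6.99 ± 0.88, adjusted p = 0.000365). Ifi205 (7.99), Ifi206 (5.37), Ifi207 (4.99), Ifi209 (4.49) and Ifi211 (5.15) rose with them. Reads of these neighbouring and closely related genes may be split between members, so the single values are uncertain. Among interferon-induced GTPases 9 of 18 rose, 15 without injured library 3, 5 without uninjured library 2 and 1 without uninjured libraries 2 and 3, and 1, Gvin3 (3.86), was stable. The interferons themselves were low: Ifnb1 was at 1.21, 0.225 and 0 CPM uninjured and 6.69, 3.92 and 1.29 CPM injured (log2 fold change 3.03 ± 0.95, adjusted p = 0.0596) and did not pass. Ifng was at 0.331, 0.719 and 0.365 CPM uninjured and 6.12, 3.24 and 1.6 CPM injured (log2 fold change 2.91 ± 0.63, adjusted p = 0.0109), with a call lost without injured library 1 (adjusted p = 0.0864), without uninjured library 3 (adjusted p = 0.0514) and without uninjured libraries 2 and 3 (adjusted p = 0.145). Irf7, the factor that amplifies type I interferon, was at 12.9, 6.47 and 5.42 CPM uninjured and 554, 182 and 43.5 CPM injured (log2 fold change 4.97 ± 0.81, adjusted p = 0.0018), a call lost without uninjured libraries 2 and 3 (adjusted p = 0.122).

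Promoters of interferon genes are shown for the same reason as those of division genes. The core of the interferon-stimulated response element was searched on both strands as TTTC, any 2 bases and again TTTC in the 250 bases before the start. It was found in 34 of the 62 interferon genes with a window (54.8%), out of 85 tested, against 2.98% of all windows, 3.34% of tested genes and 11.3% of stably higher genes, and in 1 of the 58 division genes (1.72%). The STAT letters TTCNNNGAA, read the same on both strands, were in 12 of the 62 (19.4%), against 7.02% of all windows and 7.14% of tested genes. The AP-1 letters TGANTCA were in 14 (22.6%), against 6.75% and 5.92%. The STAT letters and the core can share bases. The stable genes with the smallest adjusted p that had the core in the last 150 bases are printed below in the same way, with the core in capitals.
Ifi207: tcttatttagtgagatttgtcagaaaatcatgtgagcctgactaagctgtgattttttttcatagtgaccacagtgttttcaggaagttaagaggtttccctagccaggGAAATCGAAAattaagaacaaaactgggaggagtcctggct
Slfn9: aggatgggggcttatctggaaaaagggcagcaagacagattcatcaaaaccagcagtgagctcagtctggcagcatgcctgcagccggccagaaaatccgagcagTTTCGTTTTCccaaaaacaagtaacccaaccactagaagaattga
Ifi211: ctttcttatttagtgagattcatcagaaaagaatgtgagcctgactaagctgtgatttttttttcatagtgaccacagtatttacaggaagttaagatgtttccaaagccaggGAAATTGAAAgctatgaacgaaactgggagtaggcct
Ifitm2: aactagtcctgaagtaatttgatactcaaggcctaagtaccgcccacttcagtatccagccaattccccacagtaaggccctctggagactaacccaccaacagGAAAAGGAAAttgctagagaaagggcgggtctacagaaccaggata
On GRCm38.p6 they lie at chr1:173741810-173741959 on the minus strand, chr11:82991831-82991980 on the minus strand, chr1:173913047-173913196 on the minus strand and chr7:140955962-140956111 on the minus strand. In all 4 the core began between 37 and 46 bases before the start. The rule gave 7 such genes. In those not printed the core began at 134 bases in Ifi205, 40 in Ifi206 and 75 in Oas3, so the narrow range holds for the printed genes only. Ifi207 and Ifi211, members of 1 gene cluster, have nearly the same letters around it and are not independent examples. Their log2 fold changes were 4.99 and 5.15, against 3.79 for Slfn9 and 2.93 for Ifitm2.

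Division genes and interferon genes differed in how the injured libraries carried them. Over the 60 called division genes, the SD was a median of 27.3% of the mean among the 3 injured libraries, and injured library 1 was highest in 30, library 2 in 25 and library 3 in 5. Over the 70 called genes of the interferon-stimulated, Schlafen and Ifi200, and GTPase lists the SD was a median of 74.1% of the mean, library 1 was highest in 67, and library 1 exceeded library 3 by a median of 4.88 times, against 1.56 times for division genes. All genes called higher lay between, with 38.2%. These shares describe 3 libraries and were not tested. The monocyte markers followed the same order of libraries as the interferon genes, at 1529, 517 and 247 CPM, and their part in the difference was not tested.

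**Figure D3:**
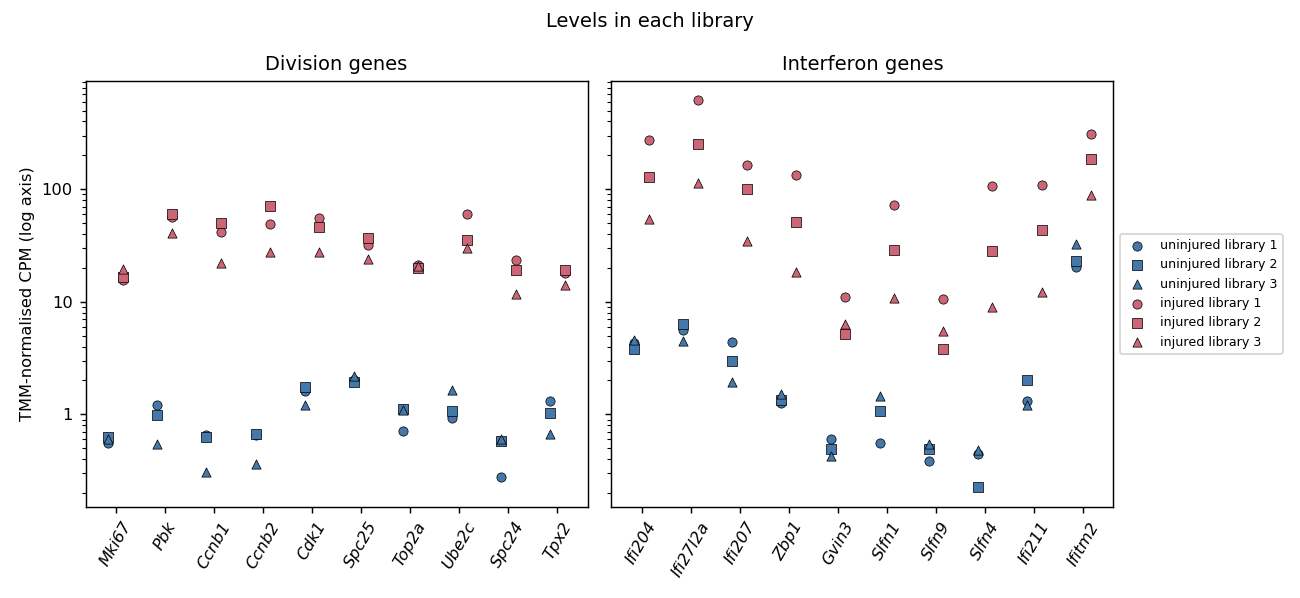
Normalized CPM (vertical log axis) of the 10 stably higher division genes (left) and 10 stably higher interferon genes (right) with the smallest adjusted p, 1 symbol for each library. Division genes in the 3 injured libraries lie close together, while interferon genes run from library 1 down to library 2 or 3.

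**Figure D4:**
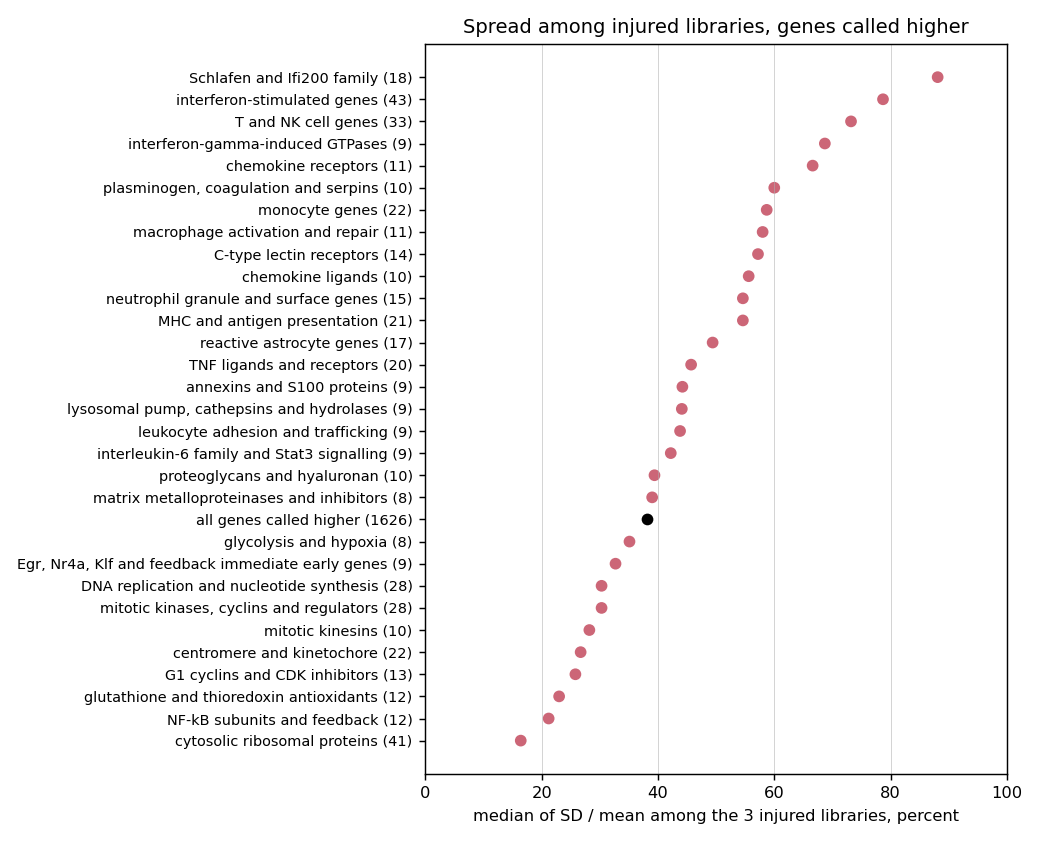
Median of the SD as a percent of the mean among the 3 injured libraries (horizontal axis) over the genes of each list called higher, for lists with 8 or more such genes (number in brackets). Ribosomal protein genes lie lowest at 16.4%, the replication, mitotic, kinesin and centromere lists between 26.7% and 30.3%, and Schlafen and Ifi200 genes highest at 88.1%; the black point is all genes called higher, at 38.2%.

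Antigen presentation and lymphocyte genes rose, most of them highest in injured library 1. Of 34 MHC and presentation genes 21 rose, 7 stably; the count was 12 without injured library 1 or uninjured library 2 or 3 and 7 without uninjured libraries 2 and 3. The class II genes, which present to CD4 T cells, were the stable core: H2-Ab1 was at 67.1, 95.9 and 132 CPM uninjured and 2863, 1924 and 844 CPM injured (log2 fold change 4.26 ± 0.48, adjusted p = 0.000168). H2-Eb1 rose by 4.42 and H2-Aa by 4.28. Their activator Ciita was at 0.276, 1.35 and 1.95 CPM uninjured and 19.2, 6.22 and 10.6 CPM injured (log2 fold change 3.33 ± 0.59, adjusted p = 0.00337). Ifi30, a lysosomal thiol reductase (3.23), and the peptide transporter Tap1 (2.21) were stable too. B2m, the light chain of class I, was at 1952, 2282 and 1177 CPM uninjured and 7904, 4965 and 1894 CPM injured (log2 fold change 1.45 ± 0.47, adjusted p = 0.0649) and did not pass. T and NK cell genes rose in 33 of 36 cases, 11 stably, with all 33 highest in injured library 1; the count was 20 without injured library 1 and 15 without uninjured libraries 2 and 3. Trac, the constant part of the T cell receptor alpha chain, was at 2.48, 3.91 and 4.02 CPM uninjured and 49.1, 24.7 and 13.5 CPM injured (log2 fold change 3.06 ± 0.42, adjusted p = 0.000679). Its signalling partners Lck (3.05), Lat (3.08) and Cd28 (3.40) moved alike. Icos, a costimulator of activated T cells (3.98), Cd8b1 of cytotoxic cells (3.87) and Klrk1, the receptor NKG2D (4.73), were stably higher. Of 20 B cell genes 4 rose (2 without injured library 1, 7 without injured library 3 and 0 without uninjured libraries 2 and 3) and 1 fell (0 in each left-out fit but that without injured library 3), 0 of them stably, with Cd79a at 4.41, 9.61 and 10.5 CPM uninjured and 16.1, 22 and 12.9 CPM injured (log2 fold change 1.05 ± 0.39, adjusted p = 0.108). Dendritic cell genes included Flt3, the receptor for their growth factor, at 1.49, 1.8 and 2.44 CPM uninjured and 45.6, 17.3 and 13.4 CPM injured (log2 fold change 3.73 ± 0.52, adjusted p = 0.000675).

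Reactive genes of astrocytes rose, while part of the resting programme fell. Of 34 reactive astrocyte genes 17 rose, 12 stably, with a median of 1.79; the list holds genes that leukocytes also express, such as Lcn2 and Cd44. Gfap, the filament protein that marks reactive astrocytes, was at 19.9, 12.9 and 8.77 CPM uninjured and 310.0, 275 and 318 CPM injured (log2 fold change 4.44 ± 0.35, adjusted p = 1.96e-05). Vim, vimentin, was at 21.9, 21 and 36.9 CPM uninjured and 278, 164 and 216 CPM injured (log2 fold change 3.04 ± 0.32, adjusted p = 0.000115). The 3 injured libraries were close for Gfap after TMM scaling. The summed astrocyte markers above are CPM of the library total, another scale, so they are not set against these values. Serpina3n was at 7.89, 6.78 and 4.38 CPM uninjured and 663, 355 and 215 CPM injured (log2 fold change 6.01 ± 0.44, adjusted p = 1.12e-05). Tgm1, a transglutaminase, was at 0.11, 0.314 and 0.487 CPM uninjured and 64.5, 25.3 and 34.6 CPM injured (log2 fold change 7.08 ± 0.58, adjusted p = 2.44e-05). Emp1 (3.41), S100a10 (2.47) and Ptx3 (2.08) rose stably as well. Nes, nestin, was at 3.69, 6.33 and 18.9 CPM uninjured and 29.4, 15.2 and 47.7 CPM injured (log2 fold change 1.68 ± 0.53, adjusted p = 0.0575) and did not pass.

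Of 44 resting astrocyte genes 10 fell and 1 rose, with a median of -0.81. The count of falls depended on the libraries: 3 without injured library 1 or 2, 27 without injured library 3, 5 without uninjured library 1 and 6 without uninjured library 2 or uninjured libraries 2 and 3 together. There were 3 stable falls. Cldn10, a claudin, was at 366, 342 and 329.7 CPM uninjured and 86.1, 75.2 and 158 CPM injured (log2 fold change -1.70 ± 0.27, adjusted p = 0.00176). Etnppl, an enzyme of phosphoethanolamine breakdown, was at 32.4, 28.3 and 22.5 CPM uninjured and 5.98, 5.7 and 10.9 CPM injured (log2 fold change -1.88 ± 0.32, adjusted p = 0.00252). Mfge8, a bridge for uptake of dying cells, was at 1667, 1073 and 1186 CPM uninjured and 298, 391 and 577 CPM injured (log2 fold change -1.63 ± 0.31, adjusted p = 0.0052). In each of the 3 every uninjured library was above every injured library, and injured library 3 was highest of its group. The gene that rose was Fabp7, a fatty acid binding protein of radial glia and young astrocytes, at 57, 35.4 and 38.5 CPM uninjured and 204, 129 and 283 CPM injured (log2 fold change 2.23 ± 0.30, adjusted p = 0.000579), a call lost without uninjured libraries 2 and 3 (adjusted p = 0.0708). Gja1, a connexin, did not pass, at 498, 273 and 365 CPM uninjured and 113, 142 and 279 CPM injured (log2 fold change -1.09 ± 0.39, adjusted p = 0.0942). Slc1a3, a glutamate transporter, did not pass either, at 1118, 645 and 927 CPM uninjured and 285, 371 and 651 CPM injured (log2 fold change -1.04 ± 0.33, adjusted p = 0.0601). Among Id, Hes, Hey and Notch genes, Id4, an inhibitor of basic helix-loop-helix factors, was the single call of 25 in edgeR with all libraries and TMM factors. It was stable, at 159, 118 and 213 CPM uninjured and 24.5, 35.7 and 67.1 CPM injured (log2 fold change -1.94 ± 0.35, adjusted p = 0.00327). The falls in this list were 4 without injured library 3 and 2 without uninjured library 1, and 2 each by DESeq2's Wald test and limma-voom. They were also 2 each with upper-quartile factors, with DESeq2 size factors and in the fit of the 6 libraries alone. Its relatives Id3 (-0.46, adjusted p = 0.207) and Id2 (0.74, adjusted p = 0.267) did not pass. Of 34 Sox and progenitor factor genes, 0 were called by edgeR with TMM factors, and 1 was lower with DESeq2 size factors. At an unadjusted p under 0.05, 1 was higher and 4 were lower. DESeq2's Wald test called 1 higher and 3 lower, and limma-voom 1 lower. The falls called by edgeR were 13 without injured library 3 and 1 without uninjured library 1, and the rises 1 without injured library 2. Pax6 was at 12, 12.3 and 18.3 CPM uninjured and 3.34, 2.61 and 9.55 CPM injured (log2 fold change -1.44 ± 0.45, adjusted p = 0.0564).

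The plot of stably lower genes shows all 19. Beside those named above they include Upk1b, a uroplakin membrane protein, at 107, 93.4 and 98.5 CPM uninjured and 14.7, 24.6 and 12.8 CPM injured (log2 fold change -2.52 ± 0.28, adjusted p = 0.000149). Prelp, a leucine-rich matrix proteoglycan, was at 44.1, 32.8 and 37.3 CPM uninjured and 7.87, 7.68 and 10.6 CPM injured (log2 fold change -2.12 ± 0.31, adjusted p = 0.00102). Both are from the list of fibroblast and meningeal genes. Ccdc162 had the lowest log2 fold change of the 19, at 7.72, 9.03 and 7.31 CPM uninjured and 0.754, 0.627 and 0.782 CPM injured (log2 fold change -3.46 ± 0.54, adjusted p = 0.00136). Enzyme genes among them were Sult1a1, a sulfotransferase (-1.69), Gstm5, a glutathione transferase (-1.46), Cyp4f15, a cytochrome P450 (-1.51), Car14, a carbonic anhydrase (-1.33), and Abhd14b (-1.38). Rsrp1 was at 1010.1, 829 and 966 CPM uninjured and 336, 396 and 366 CPM injured (log2 fold change -1.35 ± 0.23, adjusted p = 0.00234). The noncoding RNA gene Pantr1 (-1.72) and the genes Olfml1 (-1.50), Inka1 (-1.43), Efhd1 (-1.33), Nat8f1 (-1.22) and Tmem144 (-1.06) complete the set.

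**Figure D5:**
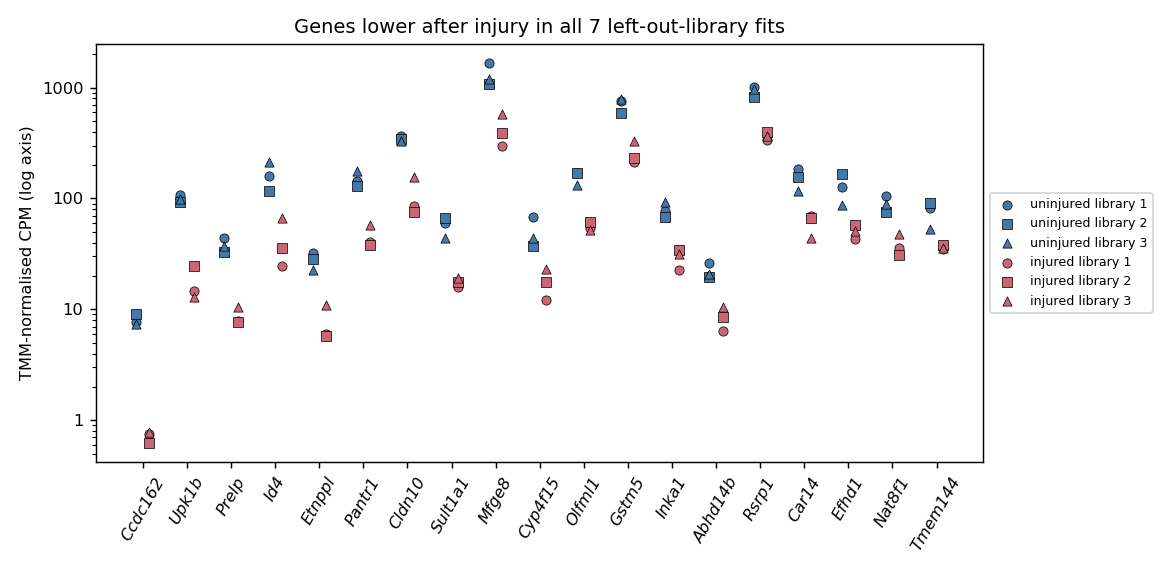
Normalized CPM (vertical log axis) of the 19 genes lower in injured cortex in all 7 left-out-library fits, 1 symbol for each library, ordered by log2 fold change from Ccdc162 to Tmem144. In every gene all 3 injured libraries (red) lie below all 3 uninjured libraries (blue). This holds for 12.5% of all tested genes, and the 19 were chosen by their calls in these same libraries.

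Genes of myelinating oligodendrocytes that passed were mostly lower. Falls were 20.6% of the list and rises 2.94%, against 2.87% and 8.99% of all tested genes. Of 34 tested 7 fell and 1 rose, 0 of them stably, with a median of -0.65; the count of falls was 1 without injured library 1 or uninjured library 2, 4 without uninjured library 1 and 0 without uninjured libraries 2 and 3. Qdpr, dihydropteridine reductase, was at 2189, 2419.7 and 1873 CPM uninjured and 836, 981 and 811 CPM injured (log2 fold change -1.30 ± 0.27, adjusted p = 0.00832). Septin4 was at 2338, 2591 and 1975 CPM uninjured and 1073, 1072 and 989 CPM injured (log2 fold change -1.14 ± 0.28, adjusted p = 0.0209). Klk6, a secreted protease of oligodendrocytes, was the gene that rose, at 34, 25.1 and 19.5 CPM uninjured and 477, 256 and 119 CPM injured (log2 fold change 3.44 ± 0.45, adjusted p = 0.000496). Calls were lost, by adjusted p, without injured library 1 Qdpr (0.0519) and Septin4 (0.084), without uninjured libraries 2 and 3 Qdpr (0.0946), Septin4 (0.166), Klk6 (0.0575) and without uninjured library 2 Septin4 (0.0755). Opalin, a membrane protein of myelinating cells, was also among the 10 largest falls in CPM, at 749, 1063 and 914 CPM uninjured and 376, 439 and 421 CPM injured (log2 fold change -1.14 ± 0.30, adjusted p = 0.0265), with its call lost without injured library 1 (adjusted p = 0.116), without injured library 2 (adjusted p = 0.051), without uninjured library 2 (adjusted p = 0.0985), without uninjured library 3 (adjusted p = 0.0624) and without uninjured libraries 2 and 3 (adjusted p = 0.37). In the precursor list 2 of 26 rose (7.69%) and 1 fell (3.85%), against 8.99% and 2.87% of all tested genes. These counts depended on single libraries. The rises were 1 without injured library 1 or 3, 9 without injured library 2, 8 without uninjured library 1 and 0 without uninjured library 2 or 3 or uninjured libraries 2 and 3 together. The falls were 0 without injured library 1 or 2, uninjured library 3 or uninjured libraries 2 and 3 together and 5 without injured library 3. Pdgfra, which marks precursors, was at 16.7, 2.2 and 1.83 CPM uninjured and 28.4, 5.7 and 100.3 CPM injured (log2 fold change 2.70 ± 0.94, adjusted p = 0.0844). Gpr17, of cells committed to differentiate, was at 9.37, 1.66 and 0.548 CPM uninjured and 49.5, 8.05 and 108 CPM injured (log2 fold change 3.83 ± 0.93, adjusted p = 0.0193). The call of Gpr17 was lost without uninjured library 2 (adjusted p = 0.0906), without uninjured library 3 (adjusted p = 0.0587) and without uninjured libraries 2 and 3 (adjusted p = 0.293). For both, injured library 3 was highest by a wide margin, the library that also had the highest sum of precursor markers, and the groups overlapped for Pdgfra.

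Among vessel lists, pericyte and smooth muscle genes had most of the calls. Of 28 pericyte and smooth muscle genes 13 fell and 1 rose, with a median of -1.25; the count of falls was 7 without injured library 1 or uninjured library 3 and 0 without uninjured libraries 2 and 3, and the rise was lost in that last fit. Kcnj8, a potassium channel of pericytes, was at 62.4, 89.8 and 99.5 CPM uninjured and 27, 34.3 and 26.3 CPM injured (log2 fold change -1.52 ± 0.22, adjusted p = 0.000884). Higd1b was at 67.2, 89.9 and 154 CPM uninjured and 28.2, 35.5 and 27 CPM injured (log2 fold change -1.78 ± 0.33, adjusted p = 0.00412). Rgs4 was at 116, 121 and 128 CPM uninjured and 42.5, 56.7 and 28.9 CPM injured (log2 fold change -1.51 ± 0.29, adjusted p = 0.00511). Uninjured library 1 was lowest of its group for each, and the 3 calls were lost only without the other 2 uninjured libraries (adjusted p between 0.0903 and 0.158). The 4 pericyte markers summed to 810.4 CPM in uninjured library 1 and to 1593 and 1732 CPM in libraries 2 and 3, against 414.5 to 586 CPM in injured cortex. Endothelial genes had 2 of 42 higher (4.76%) and 1 lower (2.38%), against 8.99% and 2.87% of all tested genes. The rises were 1 without injured library 1, uninjured library 2 or 3 or uninjured libraries 2 and 3 together and 6 without uninjured library 1. The falls were 0 without injured library 1, uninjured library 1 or 3 or uninjured libraries 2 and 3 together and 2 without injured library 3. Plvap, which forms diaphragms in leaky vessels, was the stable one, at 2.7, 2.16 and 2.5 CPM uninjured and 28.5, 19.6 and 15.9 CPM injured (log2 fold change 3.12 ± 0.31, adjusted p = 8.96e-05). Cldn5, the claudin of the blood-brain barrier, was at 100.4, 26.2 and 87.9 CPM uninjured and 60.6, 78.1 and 119 CPM injured (log2 fold change 0.27 ± 0.40, adjusted p = 0.729). In the fibroblast and meningeal list 3 rose and 7 fell of 31 (4 without injured library 1 or uninjured library 2 and 2 without uninjured libraries 2 and 3 for the falls, and 1 without injured library 1 or uninjured library 2 or 3 and 0 without uninjured libraries 2 and 3 for the rises), and Col1a1, a defining collagen, was at 0.993, 0.853 and 1.04 CPM uninjured and 0.141, 0.209 and 2.99 CPM injured.

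Matrix genes moved in both directions, also within some of the lists. Of 21 metalloproteinase and inhibitor genes 8 rose, 4 without uninjured libraries 2 and 3: Timp1, Mmp9 and Mmp8 stably, and Mmp14, a membrane-bound activator of other proteases, at 43.1, 31.3 and 32.9 CPM uninjured and 92.1, 104 and 69.7 CPM injured (log2 fold change 1.31 ± 0.22, adjusted p = 0.00252) with a call lost without uninjured libraries 2 and 3 (adjusted p = 0.189). Timp3 (-0.50, adjusted p = 0.434) and Timp4 (-0.49, adjusted p = 0.257) did not pass. Adam8, a protease of leukocytes and activated glia, rose at 1.82, 1.08 and 1.16 CPM uninjured and 46.3, 39.9 and 10.8 CPM injured (log2 fold change 4.58 ± 0.53, adjusted p = 0.000193). It was the stable one of 3 rises in 26 Adam and Adamts genes (11.5%, against 8.99% of all tested genes). Of the 26 genes, 3 fell without injured library 3 and 1 without uninjured library 1. Among matricellular genes 5 of 28 rose and 6 fell, the falls being 2 without uninjured library 2 and 1 without uninjured libraries 2 and 3. Thbs1 was at 1.32, 1.84 and 3.29 CPM uninjured and 274, 135 and 96.7 CPM injured (log2 fold change 6.30 ± 0.54, adjusted p = 2.99e-05). Fn1, fibronectin, was at 9.6, 7.9 and 24.2 CPM uninjured and 68.4, 59 and 76.3 CPM injured (log2 fold change 2.29 ± 0.38, adjusted p = 0.00218). Spock1, a testican, fell at 102, 107 and 90.4 CPM uninjured and 41.5, 50.1 and 48 CPM injured (log2 fold change -1.10 ± 0.19, adjusted p = 0.0026), a call lost without uninjured libraries 2 and 3 (adjusted p = 0.0661). Proteoglycan and hyaluronan genes had 10 of 38 higher and 8 lower. With 1 library left out these counts ran from 6 to 9 and from 1 to 16. Sdc1, syndecan-1, rose stably (log2 fold change 3.03 ± 0.41, adjusted p = 0.000564) and Prelp fell. Of 30 collagen genes 2 rose (6.67%, against 8.99% of all tested genes), neither stably, and 0 fell. The rises were 1 without injured library 1 or 3 or uninjured library 1 and 0 without uninjured library 2 or 3 or uninjured libraries 2 and 3 together. The falls were 5 without injured library 3 and 1 without uninjured library 1; falls thus outnumbered rises without injured library 3. In the coagulation and serpin list F7, coagulation factor VII (log2 fold change 5.91 ± 0.80, adjusted p = 0.000603), joined F10 and Serpina3n as the stable rises. F3, tissue factor, fell at 735, 315 and 440.1 CPM uninjured and 125, 224 and 174 CPM injured (log2 fold change -1.51 ± 0.33, adjusted p = 0.0113), with its call lost without injured library 1 (adjusted p = 0.0681).

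Membrane-binding proteins of the annexin and S100 families rose in 9 of 21 cases, 6 of them stably, with a median of 1.38. S100a11 was at 9.93, 13.8 and 10.5 CPM uninjured and 307, 130.3 and 87.3 CPM injured (log2 fold change 3.93 ± 0.43, adjusted p = 0.000143). The annexin gene Anxa2 was at 24.3, 24.9 and 34 CPM uninjured and 345, 250.2 and 121 CPM injured (log2 fold change 3.11 ± 0.37, adjusted p = 0.000235). S100a6 (2.47), Anxa1 (3.23) and S100a10 (2.47), the binding partner of Anxa2, also rose stably. S100b, the astrocyte member, was at 84.2, 68.4 and 55.8 CPM uninjured and 102, 75.1 and 127 CPM injured (log2 fold change 0.55 ± 0.27, adjusted p = 0.218) and did not pass. Of growth factor genes 6 of 40 rose (15%, against 8.99% of all tested genes) and 2 fell (5%, against 2.87%). The rises were 2 without injured library 1 or uninjured library 2 or 3. The falls were 1 without injured library 1 or uninjured library 2 and 7 without injured library 3. The list median was -0.176. For the fit without uninjured libraries 2 and 3, which leaves 1 uninjured library, only the median of this list is given, 0.308. Igfbp6, which binds IGF-II, was the stable one, at 1.1, 0.494 and 1.22 CPM uninjured and 16.4, 16.3 and 7.14 CPM injured (log2 fold change 3.83 ± 0.44, adjusted p = 0.000199). Fgfr2 fell, at 165, 199 and 162 CPM uninjured and 60.9, 75.2 and 87.7 CPM injured (log2 fold change -1.23 ± 0.22, adjusted p = 0.00372), a call lost without uninjured libraries 2 and 3 (adjusted p = 0.0948). In the TGF-beta and BMP pathway 1 of 45 rose (2.22%) and 2 fell (4.44%). In the Wnt list 3 of 37 rose (8.11%) and 1 fell (2.7%). The shares of all tested genes were 8.99% and 2.87%, and 0 of the calls in these lists were stable. The TGF-beta rises were 0 without injured library 1, uninjured library 2 or 3 or uninjured libraries 2 and 3 together, 3 without injured library 3 and 4 without uninjured library 1. The falls were 0 without injured library 1 or 2, uninjured library 3 or uninjured libraries 2 and 3 together, 7 without injured library 3 and 1 without uninjured library 2. The Wnt rises were 0 without uninjured libraries 2 and 3. The falls were 0 without injured library 1 or 2, uninjured library 1 or 2 or uninjured libraries 2 and 3 together and 4 without injured library 3.

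Stress and immediate early genes were called in part. Of 29 genes in the Egr, Nr4a and Klf list 9 rose, 2 without uninjured libraries 2 and 3. Nr4a2, an orphan nuclear receptor, was at 3.81, 3.1 and 3.65 CPM uninjured and 92.3, 41.9 and 29.4 CPM injured (log2 fold change 3.95 ± 0.40, adjusted p = 9.92e-05). Dusp5, a phosphatase of ERK, was at 8.49, 4.13 and 1.22 CPM uninjured and 72.3, 49.9 and 45.3 CPM injured (log2 fold change 3.59 ± 0.54, adjusted p = 0.00114). Both were stable, with all injured libraries above all uninjured ones. Of 17 AP-1 genes 2 rose, 5 without injured library 3, 6 without uninjured library 1, 1 without uninjured library 2 or 3 and 0 without uninjured libraries 2 and 3, and 1 fell without injured library 3 or uninjured library 1. Fosl2 was at 8.22, 4.63 and 5.24 CPM uninjured and 32.5, 18.1 and 30.4 CPM injured (log2 fold change 2.17 ± 0.30, adjusted p = 0.000674), lost without uninjured libraries 2 and 3 (adjusted p = 0.0664). Jun did not pass, at 855, 507 and 353 CPM uninjured and 365, 517 and 422 CPM injured (log2 fold change -0.40 ± 0.33, adjusted p = 0.48). Dissociation is known to induce such genes and was done in both groups; its part was not tested. In the p53 list 6 of 27 rose, 2 without injured library 1 or uninjured library 2, 11 without injured library 3, 3 without uninjured library 3 and 1 without uninjured libraries 2 and 3, and 1 fell, and among the rises Gtse1 (log2 fold change 2.76 ± 0.32, adjusted p = 0.000203), a mitotic gene that restrains p53, was stable. Perp, an effector of p53, fell at 23.2, 27.4 and 27.1 CPM uninjured and 8.95, 12.7 and 7.0 CPM injured (log2 fold change -1.44 ± 0.23, adjusted p = 0.00176), lost in the fit without uninjured libraries 2 and 3 (adjusted p = 0.0774). In the ATF4 and unfolded protein list 5 of 34 rose, 3 without injured library 1 or uninjured library 3, 12 without injured library 3, 2 without uninjured library 2 and 1 without uninjured libraries 2 and 3, with Asns, asparagine synthetase, stable at 5.29, 2.47 and 2.74 CPM uninjured and 21.2, 18.9 and 12.4 CPM injured (log2 fold change 2.32 ± 0.30, adjusted p = 0.000478). Heat shock genes had 2 of 25 higher (8%) and 1 lower (4%), against 8.99% and 2.87% of all tested genes. The rises were 1 without injured library 1 or 2 or uninjured library 2 or 3, 5 without injured library 3 and 0 without uninjured libraries 2 and 3. The falls were 0 without injured library 1, uninjured library 2 or uninjured libraries 2 and 3 together. Hspa9 (0.31, adjusted p = 0.394) did not pass.

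Metabolic genes changed at single points. In glycolysis and hypoxia 8 of 39 rose, 3 without injured library 1 or uninjured library 2, 13 without injured library 3, 4 without uninjured library 3 and 1 without uninjured libraries 2 and 3, and 1 fell, 0 without injured library 1 or 2, uninjured library 1 or 2 or uninjured libraries 2 and 3 together; Slc16a3, the exporter of lactate, was stable at 5.07, 7.68 and 5.05 CPM uninjured and 43, 28.9 and 20.8 CPM injured (log2 fold change 2.37 ± 0.35, adjusted p = 0.000963). Of 45 tested lipid genes 8.89% rose and 2.22% fell, near the 8.99% and 2.87% of all tested genes, with a median of -0.00921. Among those that rose, Ch25h, which makes an oxidized cholesterol in myeloid cells, was at 1.65, 0.988 and 0.974 CPM uninjured and 36.6, 44.6 and 9.89 CPM injured (log2 fold change 4.65 ± 0.57, adjusted p = 0.000311). Fabp4 rose stably (2.68). Plin2, which coats lipid droplets, was at 53.7, 37.8 and 45.1 CPM uninjured and 419, 651 and 169 CPM injured (log2 fold change 3.18 ± 0.45, adjusted p = 0.00079), a call lost without uninjured libraries 2 and 3 (adjusted p = 0.0811). Of 29 heme and iron genes 4 rose, 9 without injured library 3: Hp, haptoglobin, was at 3.92, 3.95 and 5.72 CPM uninjured and 107, 56.7 and 22.5 CPM injured (log2 fold change 3.78 ± 0.52, adjusted p = 0.000617), with Lcn2 and Hmox1 above. Cybb, the catalytic chain of the phagocyte oxidase, was at 6.51, 11.1 and 9.14 CPM uninjured and 210.5, 129 and 57.1 CPM injured (log2 fold change 3.89 ± 0.42, adjusted p = 0.000145). Gpx3, a secreted peroxidase, was at 3.64, 3.1 and 1.89 CPM uninjured and 18.8, 27.5 and 22.4 CPM injured (log2 fold change 2.98 ± 0.28, adjusted p = 5.29e-05). Both were stably higher. Among lysosomal genes 9 of 45 rose and 1 fell, with injured library 2 highest in 8 of the 9 and Ctse, cathepsin E, stable (log2 fold change 3.75 ± 0.57, adjusted p = 0.00116). The count of rises was 4 without injured library 1, 3 without injured library 2, 22 without injured library 3, 2 without uninjured library 2 or 3 and 1 without uninjured libraries 2 and 3, and that of falls 0 without injured library 1 or uninjured libraries 2 and 3 together. In CPM the largest rise of a called gene of this list was that of Ctsl, cathepsin L, at 1019, 1053 and 644 CPM uninjured and 2163, 3380.1 and 1362 CPM injured (log2 fold change 1.35 ± 0.40, adjusted p = 0.0473). Ctsc, cathepsin C, was at 477, 309.5 and 288 CPM uninjured and 1552, 2288 and 470.0 CPM injured. These calls were lost without injured library 1 Ctsl (0.122) and Ctsc (0.0606), without injured library 2 Ctsl (0.125) and Ctsc (0.0519), without uninjured library 1 Ctsl (0.084), without uninjured library 2 Ctsl (0.111) and Ctsc (0.083), without uninjured library 3 Ctsl (0.162) and Ctsc (0.0761) and without uninjured libraries 2 and 3 Ctsl (0.458) and Ctsc (0.378), by adjusted p, and that of Ctsl also with upper-quartile factors (0.0581) and DESeq2 size factors (0.0618).

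Most ribosomal protein genes rose. Of 47 tested 41 rose and 3 were stable, with a list median (log2) of 0.95 and members from 0.199 to 1.68. The count was 27 with library sizes that leave out the most abundant genes, 21 in the fit of the 6 libraries alone, 11 without injured library 1, 23 without uninjured library 1, 22 without uninjured library 3 and 3 without uninjured libraries 2 and 3. Rps19 was at 67.3, 90.4 and 72.3 CPM uninjured and 287, 246 and 175 CPM injured (log2 fold change 1.62 ± 0.24, adjusted p = 0.0011). Rpl32 was at 41.4, 82.7 and 42.1 CPM uninjured and 191, 134 and 148 CPM injured (log2 fold change 1.51 ± 0.28, adjusted p = 0.00444). Rps20 was at 27.2, 40.8 and 36.1 CPM uninjured and 97.1, 66.4 and 78.6 CPM injured (log2 fold change 1.22 ± 0.22, adjusted p = 0.00325). After TMM scaling injured library 1 was highest in 37 of the 41. In CPM of the library total the list summed to 10220, 7562 and 10690 CPM in injured libraries 1, 2 and 3. Their TMM factors were 1.016, 0.9382 and 1.392. Of 41 nuclear genes of the respiratory chain and ATP synthase, 0 were called by edgeR, with 3 higher at an unadjusted p under 0.05 and 1 higher by DESeq2, by limma-voom and by edgeR without injured library 3. Of 15 genes encoded by mitochondria 0 were called by each of the 3 tools and 0 passed an unadjusted p of 0.05.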

How the data were processed

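The submitters aligned polyA RNA-seq reads with HISAT2 to GRCm39, per the submitters' processing notes, and deposited raw counts per gene. The sources used here name no counting tool, annotation or strand setting. From the counts of 9 libraries the comparison was fitted with edgeR 4.0.16 (TMM factors, filterByExpr, quasi-likelihood test, 6 residual degrees of freedom, 18093 genes, Benjamini-Hochberg adjusted p under 0.05) in R 4.3.3, after a check on simulated data. DESeq2 1.42.0, limma-voom (limma 3.58.1), other scalings, filters and left-out libraries were alternatives. Total counts of the 6 libraries compared ran from 12205049 to 21135163. The 69 lists, the members and the left-out libraries were chosen with earlier results of these data known. Genes were named by rule: up to 15 stable calls with the largest fold each way and a mean of at least 50 CPM in the higher group, the 10 largest rises and falls in CPM, for lists the smallest adjusted p, the highest CPM, calls against the common direction, and roles; not all that qualified are printed. Promoters came from RefSeq on GRCm38.p6, matched by symbol, and the printed ones were narrowed to 150 bases after the matches were seen.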

Additional observations from a re-analysis of the deposited data

How the results depend on the processing

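Injured and uninjured cortex differed in 2145 genes, 1626 higher and 519 lower. The fit of the 6 libraries without the cultures gave 1369, 1041 higher and 328 lower. It has fewer samples, and 17467 genes passed its own filter. DESeq2's Wald test gave 1247 lower genes and the fit with no filter on low counts 911. Without uninjured libraries 2 and 3 together 462 genes were called, 420 higher and 42 lower, and 438 of the 462 were among the 2145. Leaving out 1 library gave from 974 to 4102 genes, from 855 to 2424 higher and from 119 to 1678 lower; the lowest counts came without injured library 1 and the highest without injured library 3. The cause of these shifts was not tested. Upper-quartile factors moved the median of all genes to -0.123 on the log2 scale. A replicate block, with the number as a term, gave 2203 genes, 1629 higher and 574 lower. Deviations of same-numbered injured and uninjured libraries correlated at 0.190, -0.141 and 0.436, so the numbers were not taken to pair the samples. Of the 221 called genes with a printed fold change, 0 changed sign in any alternative; 8 lost the call in the fit of the 6 libraries alone (Ccl2, Ctsc, Ctsl, Gpr17, H2-D1, Septin4, Tnf and Ttk) and 41 without uninjured libraries 2 and 3. Signs turned for genes that did not pass. Cldn5 ranged from -0.15 to 0.60 with 1 library left out, below 0 without injured library 3 (-0.06) or uninjured library 2, and was at -0.24 without uninjured libraries 2 and 3, where Icam1 was at -0.41, Kif1b at 0.13 and Sall1 at 0.01. With 1 library left out, Jun ranged from -0.67 to 0.03, Timp3 from -0.75 to 0.09 and Vcam1 from -0.33 to 0.14, each above 0 without uninjured library 1. With 3 libraries a side, p-values that miss the threshold do not show that a gene did not differ.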

Other observations

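Of the 368 stably higher genes, 182 were on none of the 69 lists. The genes given here were chosen after their values were seen, for a small adjusted p or a high level, and are a description. Several belong to division as well. Cdca3, which helps cells enter mitosis, had the smallest adjusted p of them, at 0.607, 0.898 and 0.731 CPM uninjured and 34.5, 28.9 and 24.5 CPM injured (log2 fold change 5.27 ± 0.25, adjusted p = 1.27e-06). Cdca5, or sororin, which protects sister chromatid cohesion (3.96), Ncapg, Smc2 and Smc4, of the condensin complex (4.59, 1.78 and 1.72), Racgap1 and Prc1, of the central spindle (3.87 and 3.15), and Pclaf, which binds the sliding clamp (5.16), rose with it. The clamp gene Pcna did not pass.

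Others are known from leukocytes. Cd72, a lectin of B cells and some myeloid cells, was at 6.07, 6.06 and 6.21 CPM uninjured and 349.8, 461 and 79.3 CPM injured (log2 fold change 5.60 ± 0.58, adjusted p = 9.92e-05), although few of the listed B cell genes were called. Plbd1, a phospholipase-like protein of myeloid cells, was at 2.65, 5.61 and 3.47 CPM uninjured and 298, 202 and 54.5 CPM injured (log2 fold change 5.55 ± 0.56, adjusted p = 8.96e-05), and Cyp4f18, which breaks down leukotriene B4 in neutrophils, at 3.31, 2.11 and 4.32 CPM uninjured and 165, 179.5 and 37.5 CPM injured (log2 fold change 5.30 ± 0.55, adjusted p = 0.000102). All 3 were highest in injured library 1 or 2 and lowest in injured library 3. Cd52, a small surface protein of leukocytes, was at 47.6, 69.9 and 58.3 CPM uninjured and 1177, 657 and 279.6 CPM injured (log2 fold change 3.59 ± 0.44, adjusted p = 0.00032). The paired receptors Cd300lf (5.09), Sirpb1c (5.81) and Lilrb4b (4.73) have close relatives between which reads may be divided. Saa3, an acute-phase protein, was at 0, 0.135 and 0.0609 CPM uninjured and 19.97, 9.25 and 5.13 CPM injured (log2 fold change 7.23 ± 0.74, adjusted p = 9.61e-05).

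Syt4, a synaptotagmin known from neurons, was stably higher in this fraction, from which neurons were gated out, at 0.827, 0.494 and 0.792 CPM uninjured and 8.24, 10.2 and 7.65 CPM injured (log2 fold change 3.63 ± 0.32, adjusted p = 3.54e-05). Of 20 neuron genes on the list 1, Tubb3, was called, at 13.4, 13 and 8.16 CPM uninjured and 74.9, 33.2 and 34.2 CPM injured (log2 fold change 2.04 ± 0.33, adjusted p = 0.00177); that call was lost without uninjured libraries 2 and 3 (adjusted p = 0.0984), and 2 were called without uninjured library 1. Lgals1, galectin-1, was at 12.7, 13.6 and 19.9 CPM uninjured and 210.0, 172 and 142 CPM injured (log2 fold change 3.51 ± 0.28, adjusted p = 2.17e-05), with every injured library above every uninjured library. The actin-binding peptide gene Tmsb10 was at 9.43, 13.6 and 16.6 CPM uninjured and 82.2, 48.6 and 77.4 CPM injured (log2 fold change 2.40 ± 0.30, adjusted p = 0.000319), and its groups did not overlap either.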
